A study of Mus musculus with 13 samples.

Results

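The 9 genes described here, Nes, Eomes, Neurod1, Sox4, Sox11, Dcx, Igfbpl1, Mki67 and Top2a, mark steps of adult hippocampal neurogenesis and of cell division. They were chosen by gene symbol from 36287 genes in the deposited table, and all 9 were found and passed the filter on low counts, which kept 22065 genes. Bulk mRNA was sequenced from the hippocampus of 5xFAD mice, a mouse model of amyloid deposition whose mutant human transgenes are driven in neurons by a Thy1 promoter. The libraries fall into 3 treatment groups, saline (animals 18, 19, 32 and 38), Aducanumab (24, 50, 56 and 58) and ACLP-NT (17, 27, 49, 53 and 55). Aducanumab is an antibody to aggregated amyloid beta, and ACLP-NT is known here only by its code name and by the series title, which speaks of a nanomedicine for microglial lysosomes. All groups carry the transgenes, so the saline mice are the reference and there is no wild-type group. The sources used here give no age, dose or treatment time.

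New granule neurons are made throughout life in the subgranular zone of the dentate gyrus. Radial glia-like stem cells, which carry the intermediate filament nestin (Nes), give rise to dividing intermediate progenitors that transiently express the T-box factor Eomes (Tbr2). Their progeny switch on the helix-loop-helix factor Neurod1 and the SoxC factors Sox4 and Sox11, and as neuroblasts and immature neurons they hold doublecortin (Dcx), a microtubule-binding protein of migrating neurons, and Igfbpl1, a secreted protein of the insulin-like growth factor binding family. Mki67 encodes the Ki-67 protein of dividing cells and Top2a the topoisomerase that untangles DNA before mitosis. Several of these genes are also used by other cells: Neurod1 by mature granule neurons, nestin by endothelium and some glia, and Mki67 and Top2a by any cell in division, such as oligodendrocyte precursors and microglia.

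Total counts ran from 53642019 to 69734713 per library. Markers of mature dentate granule neurons and of CA fields, which define the hippocampus, were present in every library, with summed levels of 779 to 1050 CPM (counts relative to the TMM-scaled library size) for 14 granule genes and 1544 to 2175 CPM for 12 CA genes. Tissue beside the hippocampus varied within every group: Ttr, the leading transcript of choroid plexus epithelium, spanned 21.0 to 4482 CPM among saline libraries, 48.6 to 4556 with Aducanumab and 48.3 to 4500 with ACLP-NT. Aducanumab 58 and ACLP-NT 49 stood apart for Eomes, as described below, and Aducanumab 50 for markers of thalamus and midbrain, with a summed level of 247 CPM against 81.6 to 133 in the other libraries.

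Both cell division genes carry in their promoters the letters of 2 elements known from genes of the late cell cycle, which is why these stretches are shown. They are the 250 bases before the start in RefSeq's GRCm38.p6 table, which matched 8 of the 9 genes and not Igfbpl1. Capitals mark CCAAT, the box bound by NF-Y, and TTTGAA, a form of the cell cycle homology region, on either strand (ATTGG and TTCAAA). The first lies at chr7:135716380-135716629 and the second at chr11:99024190-99024439, both on the minus strand.
Mki67: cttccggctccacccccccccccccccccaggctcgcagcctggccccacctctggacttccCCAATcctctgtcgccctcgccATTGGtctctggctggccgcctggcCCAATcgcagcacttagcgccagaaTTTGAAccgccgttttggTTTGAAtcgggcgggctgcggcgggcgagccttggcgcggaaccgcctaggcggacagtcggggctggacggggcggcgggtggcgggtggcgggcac
Top2a: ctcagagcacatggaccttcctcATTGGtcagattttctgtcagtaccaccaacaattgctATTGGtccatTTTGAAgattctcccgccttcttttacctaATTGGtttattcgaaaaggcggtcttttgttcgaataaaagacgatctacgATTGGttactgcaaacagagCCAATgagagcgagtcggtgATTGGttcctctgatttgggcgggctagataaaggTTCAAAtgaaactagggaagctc
Mki67 held 3 CCAAT boxes and 2 TTTGAA elements and Top2a 6 and 2. Of 32851 promoters of this length, 33.8% held CCAAT, 16% TTTGAA and 5.55% both. Sox11 was the other member with both, and Sox4 had 4 CCAAT boxes, Eomes 2, Dcx 1 in the outer of its 2 windows, and Nes and Neurod1 none. These matches are a description of the letters in the window.

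Per unit of gene length, Neurod1 was the most abundant of the 9, with a mean over all libraries of 7.44 FPKM (6.28 to 8.24), followed by Sox4 at 3.61 FPKM (3.03 to 4.21). Neither range touched that of the next gene. Sox11 (1.87 FPKM), Nes (1.75) and Dcx (1.66) came next, and their ranges overlapped. Igfbpl1 (0.579 FPKM), Mki67 (0.361), Top2a (0.211) and Eomes (0.204) were lowest. Mki67 and Top2a had mean raw counts of 242 and 129 per library, so these were low but countable transcripts. Eomes had a raw count of 25 or fewer in 11 of the 13 libraries, and of 219 and 365 in the others.

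**Figure D1:**
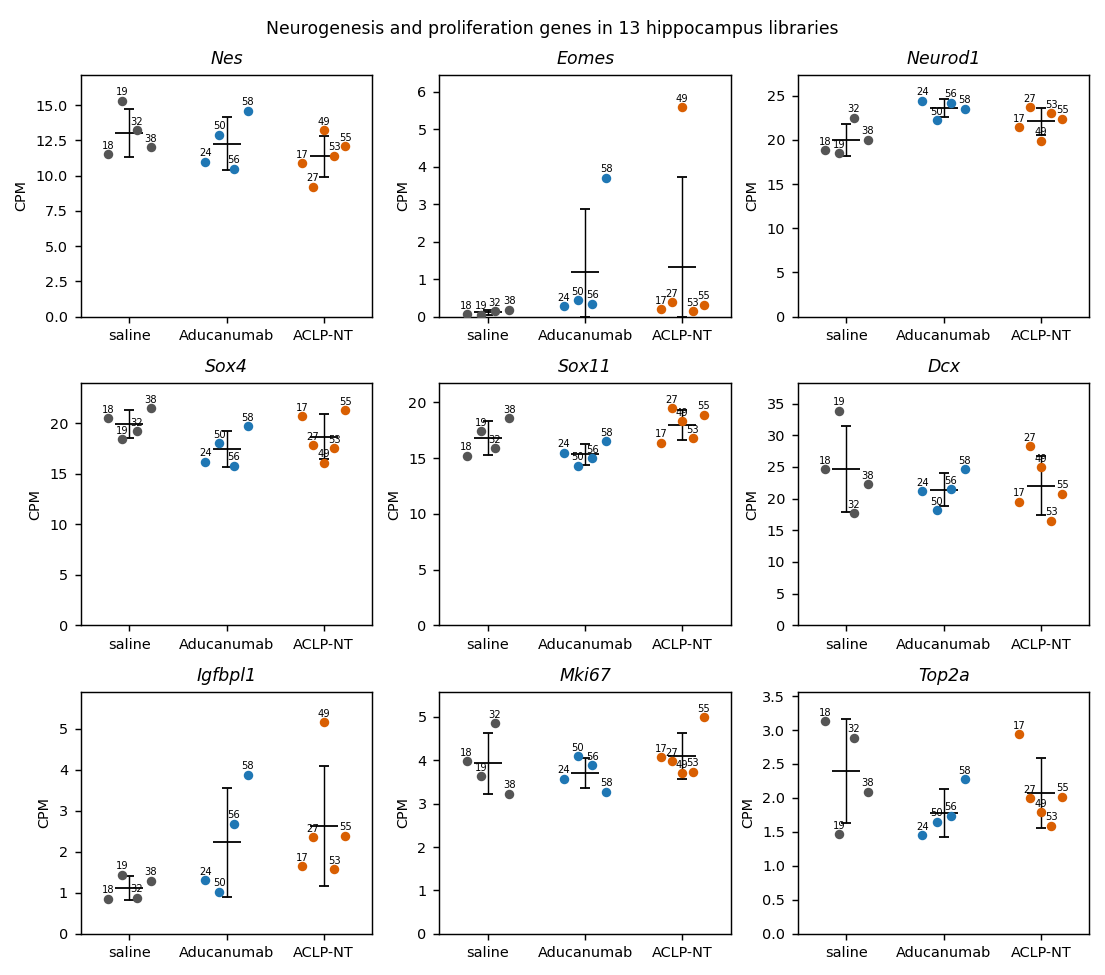
Levels of the 9 genes in every library, in CPM (TMM-scaled) on axes that start at 0. Points are libraries with their animal number, the wide bar is the group mean and the thin bar its SD, drawn down to 0 at most. Eomes sits under 0.5 CPM in all libraries but Aducanumab 58 (3.71) and ACLP-NT 49 (5.59), and Igfbpl1 is above every saline library in all 5 ACLP-NT libraries.

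The comparison of each treatment with saline asks whether the antibody or ACLP-NT went with a change in transcripts of newborn neurons. None of the 9 genes passed in any comparison. In ACLP-NT against saline 0 of 9 passed the edgeR quasi-likelihood test at an adjusted p of 0.05, where 0% of all genes did, and 2 had an unadjusted p under 0.05, where 5.88% of all genes did. In Aducanumab against saline 0 of 9 passed (0% of all genes) and 3 had an unadjusted p under 0.05 (4.68% of all genes). In ACLP-NT against Aducanumab 0 of 9 passed (0% of all genes) and 1 had an unadjusted p under 0.05 (3.24% of all genes). By limma on log2(FPKM + 1) 0 of 9 passed in each comparison, and by DESeq2 0 of the 8 with an adjusted p, as that tool gave none for Eomes. The groups did not overlap for 1 of 9 genes (Igfbpl1) in ACLP-NT against saline, for 1 (Eomes) in Aducanumab against saline and for 0 in ACLP-NT against Aducanumab, against 2.26%, 2.58% and 1.34% of all genes. The members had 5 higher and 4 lower in ACLP-NT than in saline (all genes 49.4% and 50.6%), 3 and 6 in Aducanumab (51.3% and 48.7%), and 7 and 2 in ACLP-NT against Aducanumab (47.6% and 52.4%). Both treatment comparisons share the saline libraries. In bulk tissue, fewer cells of a type and less RNA per cell cannot be told apart. Each p-value weighs a group difference against a spread estimated from these samples only.

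**Figure D2:**
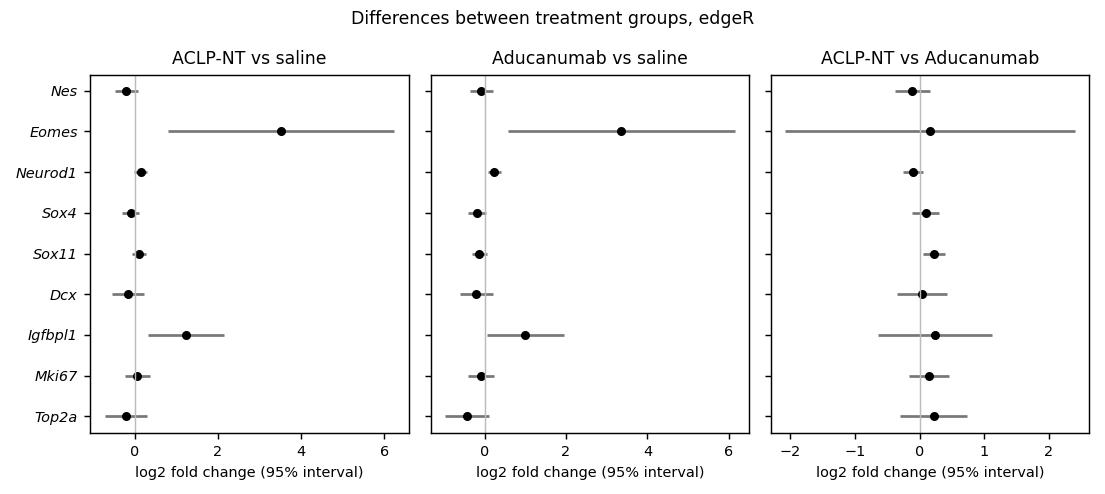
Log2 fold changes of the 9 genes in the 3 comparisons (points) with their 95% intervals (lines) from the edgeR fit. The intervals of Eomes are the widest, from 0.79 to 6.24 in ACLP-NT against saline, and those of Neurod1, Sox4 and Sox11 the narrowest. Each panel has its own horizontal scale.

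Among the stem and progenitor genes, Nes was at 11.5, 15.3, 13.2 and 12 CPM in saline 18, 19, 32 and 38, at 11, 12.9, 10.5 and 14.6 CPM in Aducanumab 24, 50, 56 and 58, and at 10.9, 9.21, 13.2, 11.4 and 12.1 CPM in ACLP-NT 17, 27, 49, 53 and 55. The 3 groups overlapped throughout. Means were 13 ± 1.71 (SD, n = 4), 12.2 ± 1.88 (SD, n = 4) and 11.3 ± 1.47 CPM (SD, n = 5), and the log2 fold change against saline was -0.20 (SE 0.126, edgeR adjusted p = 0.904) in ACLP-NT and -0.09 (SE 0.133, adjusted p = 1) in Aducanumab. With single libraries left out the first ran from -0.25 without saline 18 to -0.11 without saline 19, and the second from -0.18 without Aducanumab 58 to 0 without saline 19. The other 16 stem cell genes, nearly all shared with astrocytes, had 0 past the test in either direction in each comparison, with 5 higher and 11 lower in ACLP-NT (median log2 fold change -0.06) and 8 higher and 8 lower in Aducanumab (median -0.0072), where the median of all genes was -0.001 and 0.004. The most abundant were Gfap, the astrocyte intermediate filament (log2 fold change -0.43 and -0.18), the glycolytic enzyme Aldoc (0.00 and 0.05) and the glutamate transporter Slc1a3 (-0.04 and -0.03). The mean centred log2 CPM of the 16 genes had a Pearson r of 0.76 and a Spearman rho of 0.68 with Nes (permutation p = 0.00307 and 0.013, adjusted 0.124 and 0.265). That r was 0.57 without the 2 farthest libraries. With CA field genes Nes had r = -0.73 and rho = -0.65 (permutation p = 0.00384 and 0.0195, adjusted 0.124 and 0.274).

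Eomes had the widest spread of the 9, from 0.0484 to 5.59 CPM. In saline it was at 0.0699, 0.0484, 0.15 and 0.184 CPM, from raw counts of 4, 3, 10 and 13. In Aducanumab it was at 0.279, 0.438, 0.345 and 3.71 CPM, from counts of 16, 25, 22 and 219. In ACLP-NT it was at 0.194, 0.393, 5.59, 0.149 and 0.323 CPM, from counts of 12, 24, 365, 8 and 21. All 4 Aducanumab libraries lay above every saline library, as did 4 of the 5 ACLP-NT libraries; ACLP-NT 53 lay below saline 32 and saline 38.

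The log2 fold change of Eomes was 3.35 (SE 1.3, 95% interval 0.57 to 6.14, edgeR adjusted p = 1) in Aducanumab and 3.52 (SE 1.27, interval 0.79 to 6.24, adjusted p = 0.765) in ACLP-NT against saline. The size moved with single libraries. Without Aducanumab 58 the first value was 1.61, and without ACLP-NT 49 the second was 1.21; with both left out, a fit added after seeing the data, they were 1.62 (SE 0.562, adjusted p = 0.820) and 1.21 (SE 0.534, adjusted p = 0.634). Between ACLP-NT and Aducanumab the log2 fold change was 0.16 (SE 1.04), -2.15 without ACLP-NT 49, 1.91 without Aducanumab 58 and -0.41 (SE 0.545) without either.

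The progenitor genes Neurog2 and Neurod4 were not high in those libraries. Neurog2, a proneural factor that precedes Eomes in this lineage, was at 0.626 CPM in Aducanumab 58 and 1.07 in ACLP-NT 49, against 1.05 to 1.97 CPM in the other 11. Neurod4 was at 0.203 and 0.0613 CPM against 0.123 to 1.12, from raw counts of only 4 to 60 over all libraries. Prox1, the homeobox factor of granule neurons, was at 114 and 110 CPM against 89.6 to 142. These 3 genes, and Calb2 below, were singled out after their values were seen. Of the 10 progenitor genes on the list, 0 passed in either direction in each comparison, and 7 were higher in ACLP-NT and 8 in Aducanumab than in saline, with medians of 0.07 and 0.17. Their score weighs low and abundant genes alike, and Tfap2c, on this list, had a count of 0 in 4 libraries. Over the libraries this score had r = -0.37 and rho = -0.16 with Eomes (permutation p = 0.212 and 0.605, adjusted 0.687 and 0.911). That sign did not hold: r was 0.1 without the 2 libraries farthest from the median and 0.33 without Aducanumab 58 and ACLP-NT 49. Gadd45g, a stress and differentiation gene, was the most abundant of them (log2 fold change 0.13 in ACLP-NT and 0.29 in Aducanumab), followed by the RNA-binding protein gene Elavl2 (0.01 and 0.09) and the antiproliferative gene Btg2 (0.00 and -0.12).

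Among the genes whose log2 CPM was most like that of Eomes over the 13 libraries were the transporter gene Slc10a4 (Pearson r 0.93), the GLP-1 receptor gene Glp1r (0.92), Nrn1l (0.87) and Dcdc2a (0.87). They were picked from all tested genes by that r, which is a description of shared libraries. Without Aducanumab 58 and ACLP-NT 49 the values were 0.81, 0.59, 0.70 and 0.69. Slc10a4 was at 2.56 CPM in Aducanumab 58 and 1.33 in ACLP-NT 49, against 0.105 to 0.614 in the others. Glp1r was at 10.9 and 11.3 CPM against 2.25 to 5.72.

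Some markers of other neurons were also highest in these 2 libraries, and some were not. Of the markers of the subventricular neuroblast and interneuron lineage, Sp8 was at 4.81 CPM in Aducanumab 58 and 5.31 in ACLP-NT 49 against 0.889 to 1.52 in the others, and Dlx1 at 32.8 and 34.1 against 19.0 to 27.3. Dlx2 was at 4.48 CPM in Aducanumab 58, inside the 3.40 to 4.87 of the others, and at 5.27 in ACLP-NT 49. The summed level of the 12 genes of that list was 394 to 535 CPM across saline, 438 to 543 with Aducanumab and 411 to 562 with ACLP-NT. No gene of it was at 0 in any library. The list score, the mean centred log2 CPM of these genes, was highest in Aducanumab 58 (0.39) and ACLP-NT 49 (0.42). It lay between -0.27 and 0.16 in the other libraries. With Eomes it had r = 0.65 and rho = 0.30 (permutation p = 0.0167 and 0.324, adjusted 0.181 and 0.787). Without Aducanumab 58 and ACLP-NT 49 that r was -0.38. Calb2, the calcium-binding protein calretinin of immature granule neurons and interneurons, was at 39.1 and 52.9 CPM against 16.6 to 36.1.

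Cajal-Retzius neurons, early-born cells that line the hippocampal fissure, also use Eomes. Their 7 markers summed to 71 to 96.6 CPM across saline, 74 to 89.3 with Aducanumab and 72.6 to 98.7 with ACLP-NT, so these sums overlapped. Their score, the mean centred log2 CPM of the 7 genes, weighs low and abundant genes alike and ran from -0.47 to -0.36 across saline, -0.58 to 0.7 with Aducanumab and -0.13 to 0.94 with ACLP-NT, where no library overlapped saline. Among single genes, 2.26% of all tested did not overlap between ACLP-NT and saline. Lhx1 was at 0.728 CPM in Aducanumab 58, where others reached 0.803, and at 1.21 in ACLP-NT 49, and it was at 0.12 CPM or less in all saline libraries. Trp73 (9.29 and 7.80 CPM) and Reln (49.9 and 56.5 CPM) lay inside the ranges of the others, 2.92 to 10 and 41.4 to 72.4. Lhx1 and Lhx5 each had a count of 0 in 1 library. This score had a Pearson r of 0.84 and a rho of 0.69 with Eomes (permutation p = 0.00046 and 0.0111, adjusted over 162 relations 0.0526 and 0.265), and r was 0.52 without Aducanumab 58 and ACLP-NT 49. T and NK cells use Eomes as well: 6 of 12 markers were tested and summed to 0.971 to 3.34 CPM over all libraries, and Gzma was at 0 in 12 libraries, Nkg7 in 4 and Cd3e in 3. The part of these cell types in the Eomes level was not tested.

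**Figure D3:**
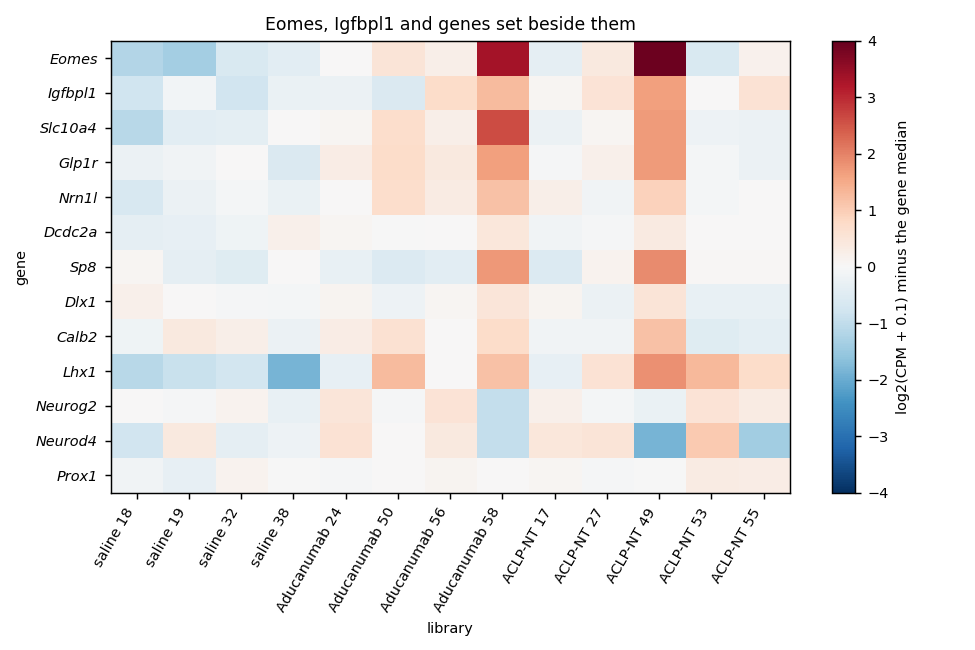
Colour shows log2(CPM + 0.1) minus the median of the gene over the 13 libraries, for Eomes and Igfbpl1, 4 genes most like Eomes, markers of other neurons (Sp8, Dlx1, Calb2, Lhx1) and genes of the granule lineage (Neurog2, Neurod4, Prox1). Eomes, Slc10a4, Glp1r and Sp8 are high in Aducanumab 58 and ACLP-NT 49, where Prox1 lies within the range of the other libraries.

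Of the differentiation factors, Neurod1 was at 18.8, 18.5, 22.5 and 20.0 CPM in saline, at 24.4, 22.2, 24.2 and 23.5 CPM in Aducanumab, and at 21.4, 23.7, 19.9, 23.0 and 22.4 CPM in ACLP-NT. Only saline 32 among the saline libraries reached into the Aducanumab range. Means were 19.9 ± 1.81 CPM (SD, n = 4), 23.6 ± 0.989 CPM (SD, n = 4) and 22.1 ± 1.47 CPM (SD, n = 5). The log2 fold change against saline was 0.24 (SE 0.0754, edgeR adjusted p = 1, unadjusted p = 0.00614) in Aducanumab and 0.15 (SE 0.0717, adjusted p = 0.839) in ACLP-NT. The 95% intervals were 0.08 to 0.41 and -0.01 to 0.30 in that order, and 0.21 to 0.31 was the range when single libraries were left out of the Aducanumab comparison.

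The level of Neurod1 was set beside markers of neighbouring tissue and of mature granule neurons, and no relation passed after adjustment. Over the 13 libraries its log2 CPM had a Pearson r of -0.82 and a Spearman rho of -0.79 with the score of 12 neocortex markers (permutation p = 0.00065 and 0.00221, adjusted 0.0526 and 0.11), and r was -0.63 without the 2 libraries farthest from the median score and -0.63 after centring on group means. With 14 mature granule neuron markers r was 0.67 and rho 0.58 (permutation p = 0.0133 and 0.0425, adjusted 0.18 and 0.417), 0.60 without 2 libraries and 0.72 after centring. All 12 neocortex markers were lower in each treatment than in saline, with medians of -0.27 in ACLP-NT and -0.44 in Aducanumab, and summed to 253 to 379 CPM across saline, 214 to 264 with Aducanumab and 221 to 303 with ACLP-NT. All 14 granule markers were higher in ACLP-NT and 12 in Aducanumab, with medians of 0.22 and 0.12, and 0 of either list passed the test. C1ql2, a synaptic organizer of mossy fibres, was the most abundant granule marker (log2 fold change 0.23 and 0.10), then C1ql3 (0.09 and 0.05) and the calcium buffer calbindin, Calb1 (0.06 and 0.04). The part of tissue make-up in the Neurod1 level was not tested.

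The SoxC factors Sox4 and Sox11, paralogs that activate neuronal genes in newborn neurons, are described together. Sox4 was at 20.5, 18.4, 19.2 and 21.5 CPM in saline, at 16.2, 18.0, 15.8 and 19.7 CPM in Aducanumab and at 20.7, 17.8, 16.1, 17.5 and 21.3 CPM in ACLP-NT. Sox11 was at 15.2, 17.4, 15.9 and 18.6 CPM, at 15.5, 14.3, 15.0 and 16.5 CPM, and at 16.4, 19.5, 18.3, 16.8 and 18.9 CPM in the same order. Aducanumab held the lowest mean of both, and the groups overlapped, for Sox11 in ACLP-NT 17 and Aducanumab 58. The labels do not say how reads shared between these paralogs were handled.

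Sox4 averaged 19.9 ± 1.38 CPM (SD, n = 4) in saline, 17.4 ± 1.81 (SD, n = 4) in Aducanumab and 18.7 ± 2.20 (SD, n = 5) in ACLP-NT, with log2 fold changes against saline of -0.19 (SE 0.1, edgeR adjusted p = 1) and -0.09 (SE 0.0950, adjusted p = 0.953). Sox11 averaged 16.8 ± 1.55, 15.4 ± 0.925 and 18.0 ± 1.34 CPM, with -0.13 (SE 0.0844, adjusted p = 1) and 0.10 (SE 0.0800, adjusted p = 0.938). Between ACLP-NT and Aducanumab the log2 fold change of Sox11 was 0.23 (SE 0.0803, 95% interval 0.05 to 0.40, adjusted p = 1, unadjusted p = 0.0139). It was the 1 member with an unadjusted p under 0.05 there. Over the libraries Sox4 and Sox11 had a Pearson r of 0.24 and a rho of 0.27 (permutation p = 0.425 and 0.373, adjusted over 36 pairs 0.838 and 0.842).

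Of the immature neuron genes, Dcx was at 24.6, 33.9, 17.7 and 22.3 CPM in saline, at 21.2, 18.2, 21.5 and 24.6 CPM in Aducanumab and at 19.5, 28.3, 25.0, 16.5 and 20.8 CPM in ACLP-NT. Saline 19 held the highest and ACLP-NT 53 the lowest value, and the saline libraries alone spanned most of that range. Means were 24.6 ± 6.78 CPM (SD, n = 4), 21.4 ± 2.62 CPM (SD, n = 4) and 22 ± 4.67 CPM (SD, n = 5). The log2 fold change against saline was -0.20 (SE 0.188, 95% interval -0.61 to 0.20, edgeR adjusted p = 1) in Aducanumab and -0.16 (SE 0.178, interval -0.54 to 0.22, adjusted p = 0.957) in ACLP-NT. Without saline 19 these were -0.01 and 0.03.

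The genes most like Dcx over the 13 libraries were Sgsm1 (Pearson r 0.93), Rps6ka2 (0.90), the homeobox factor Meis2 (0.89), the calcium pump gene Atp2b4 (0.89) and Slc25a18 (0.88), picked by that r from all tested genes. Meis2 also stands on the subventricular and interneuron list, whose score had r = 0.67 and rho = 0.83 with Dcx (permutation p = 0.0116 and 0.00071, adjusted 0.175 and 0.11; r = 0.84 without the 2 farthest libraries). With neocortex markers r was 0.64 and rho 0.58 (permutation p = 0.0162 and 0.0393, adjusted 0.181 and 0.417; 0.42 without 2 libraries). With CA field genes r was -0.6 and rho -0.52 (permutation p = 0.0296 and 0.07, adjusted 0.235 and 0.454). The r of Dcx with neocortex markers had the opposite sign to that of Neurod1, and r between the 2 genes was -0.45 (rho -0.27, permutation p = 0.121 and 0.374). Of 20 other neuroblast and immature neuron genes, 0 passed in either direction in each comparison, with 10 higher and 10 lower in ACLP-NT (median 0.00035) and 12 higher and 8 lower in Aducanumab (median 0.050). The tubulins Tubb2b (log2 fold change -0.01 in each) and Tubb3 (-0.13 in ACLP-NT and -0.09 in Aducanumab) and the microtubule destabilizer Stmn1 (-0.32 in each, SE 0.129 and 0.136) were the most abundant. The score of the 20 genes had r = 0.48 and rho = 0.38 with Dcx (permutation p = 0.0962 and 0.206, adjusted 0.503 and 0.711). That r was 0.11 without the 2 farthest libraries and 0.69 after centring on group means.

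Igfbpl1 was at 0.856, 1.44, 0.882 and 1.29 CPM in saline, at 1.31, 1.03, 2.68 and 3.88 CPM in Aducanumab and at 1.65, 2.36, 5.15, 1.57 and 2.39 CPM in ACLP-NT, from raw counts of 49 to 91, 59 to 229 and 84 to 336. All 5 ACLP-NT libraries lay above every saline library, which held for 2.26% of all genes in either direction, while Aducanumab 24 and 50 lay among the saline libraries. Means were 1.12 ± 0.291 (SD, n = 4), 2.22 ± 1.31 (SD, n = 4) and 2.62 ± 1.46 CPM (SD, n = 5). The log2 fold change was 1.23 (SE 0.425, 95% interval 0.32 to 2.15, edgeR adjusted p = 0.752, unadjusted p = 0.0117) in ACLP-NT and 0.99 (SE 0.441, interval 0.05 to 1.94, adjusted p = 1, unadjusted p = 0.0409) in Aducanumab. Without ACLP-NT 49 the first was 0.84, and without Aducanumab 58 the second was 0.59. Between ACLP-NT and Aducanumab it was 0.24 (SE 0.410), and -0.16 without ACLP-NT 49.

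Igfbpl1 was highest in the same 2 libraries as Eomes. Its Pearson r with Eomes was 0.82 and rho 0.65 (permutation p = 0.0006 and 0.0194, adjusted over 36 pairs 0.0216 and 0.349), the only pair to pass. The relation rests on Aducanumab 58 and ACLP-NT 49, the libraries farthest from the median: r was 0.48 without them. With the score of ependyma, the ciliated cells that line the ventricle, r was 0.68 and rho 0.67 (permutation p = 0.011 and 0.0147, adjusted 0.175 and 0.265). That r was 0.54 without the 2 farthest libraries and 0.46 without Aducanumab 58 and ACLP-NT 49. With choroid plexus r was 0.61 and rho 0.53 (permutation p = 0.0264 and 0.0659, adjusted 0.225 and 0.445). It was 0.69 without the 2 farthest libraries and 0.5 without Aducanumab 58 and ACLP-NT 49. The 10 ependymal markers, led by the cilia factor Foxj1, summed to 30.6 to 65.3 CPM across saline, 34.3 to 84.5 with Aducanumab and 31.9 to 71.9 with ACLP-NT, and none was at 0 in any library. With the Cajal-Retzius score r was 0.68 and rho 0.64 (permutation p = 0.0115 and 0.0224, adjusted 0.175 and 0.28; r 0.22 without Aducanumab 58 and ACLP-NT 49). The part of these cell types in the Igfbpl1 level was not tested.

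Of the genes of dividing cells, Mki67 was at 3.98, 3.64, 4.86 and 3.23 CPM in saline, at 3.58, 4.09, 3.89 and 3.28 CPM in Aducanumab and at 4.07, 3.98, 3.71, 3.74 and 4.99 CPM in ACLP-NT. Top2a was at 3.13, 1.47, 2.89 and 2.09 CPM, at 1.45, 1.65, 1.74 and 2.28 CPM, and at 2.94, 2, 1.79, 1.59 and 2.02 CPM in the same order. The groups overlapped for both genes, and saline held the highest and nearly the lowest Top2a values. Mki67 averaged 3.93 ± 0.694 (SD, n = 4), 3.71 ± 0.353 (SD, n = 4) and 4.10 ± 0.523 CPM (SD, n = 5), with log2 fold changes against saline of -0.08 (SE 0.148, 95% interval -0.40 to 0.23, edgeR adjusted p = 1) in Aducanumab and 0.06 (SE 0.140, interval -0.24 to 0.36, adjusted p = 0.980) in ACLP-NT. Top2a averaged 2.39 ± 0.759, 1.78 ± 0.358 and 2.07 ± 0.519 CPM, with -0.43 (SE 0.254, interval -0.97 to 0.12, adjusted p = 1) and -0.21 (SE 0.240, interval -0.72 to 0.30, adjusted p = 0.959). Without saline 18 the Top2a values were -0.27 and -0.06, and without saline 19 they were -0.60 and -0.38.

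Both genes, whose promoters share the elements printed above, had r = 0.33 and rho = 0.32 with each other over the libraries (permutation p = 0.27 and 0.282, adjusted 0.838 and 0.842). Of 49 other cell cycle genes tested, 0 passed in either direction in each comparison, with 17 higher and 32 lower in ACLP-NT (median log2 fold change -0.087) and 22 higher and 27 lower in Aducanumab (median -0.044). Over all genes 50.6% and 48.7% were lower, with medians of -0.001 and 0.004. Their summed level was 202 to 210 CPM across saline, 199 to 206 with Aducanumab and 192 to 210 with ACLP-NT. The replication clamp Pcna was the most abundant (log2 fold change -0.06 in each), with the helicase subunit Mcm6 (0.02 in ACLP-NT and -0.03 in Aducanumab) and cyclin E1, Ccne1 (0.19 and 0.16). The score of this list weighs low and abundant genes alike. Melk had a count of 0 in 4 libraries, Bub1, Knl1 and Ttk in 2, and Ube2c and Ndc80 in 1. The score had r = 0.18 and rho = -0.05 with Mki67 (permutation p = 0.565 and 0.878, adjusted 0.824 and 0.948), and r was -0.1 without the 2 farthest libraries. With Top2a it had r = -0.30 and rho = -0.37 (permutation p = 0.323 and 0.216, adjusted 0.784 and 0.711), and r was -0.36 without the 2 farthest. The genes most like Mki67 were Hif1an (0.93), Cnnm1 (0.89), Nin (0.88), Fkbp1b (0.86) and Psmd6 (0.84), none of them on the cell cycle list. Beside other tissue, Mki67 had its lowest r with the scores of choroid plexus and of vessel walls, and neither passed. With choroid plexus it had r = -0.70 and rho = -0.70 (permutation p = 0.00662 and 0.00951, adjusted 0.153 and 0.265; r -0.66 without 2 libraries and -0.81 after centring), and with pericytes and smooth muscle r = -0.72 and rho = -0.77 (permutation p = 0.0056 and 0.00271, adjusted 0.151 and 0.11; r -0.51 without 2 libraries).

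Cells other than neural progenitors divide in this tissue as well. Of 13 oligodendrocyte precursor markers, 10 were lower in ACLP-NT and 9 in Aducanumab than in saline (medians -0.097 and -0.044), and they summed to 966 to 1084 CPM across saline, 910 to 999 with Aducanumab and 898 to 972 with ACLP-NT. Of the 18 lists Nes had its highest r with this one, followed by the stem cell list (r = 0.76). With oligodendrocyte precursor markers r was 0.79 and rho 0.78 (permutation p = 0.00129 and 0.00237, adjusted 0.0697 and 0.11). That r was 0.86 without 2 libraries and 0.74 after centring. Of 14 microglial markers all were lower in both treatments (medians -0.39 and -0.29), with sums of 1240 to 1549, 1029 to 1299 and 838 to 1267 CPM in saline, Aducanumab and ACLP-NT. Endothelium, which can also hold nestin, had 12 markers, 7 of them lower in each treatment (medians -0.043 and -0.02), with sums of 255 to 330, 252 to 364 and 239 to 304 CPM. The first endothelial median ran from -0.096 without saline 18 to 0.043 without saline 19. The second ran from -0.19 without Aducanumab 58 to 0.063 without saline 19. No marker of oligodendrocyte precursors, microglia or endothelium was at 0 in any library. The part of these cells in the levels of Mki67, Top2a and Nes was not tested.

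**Figure D4:**
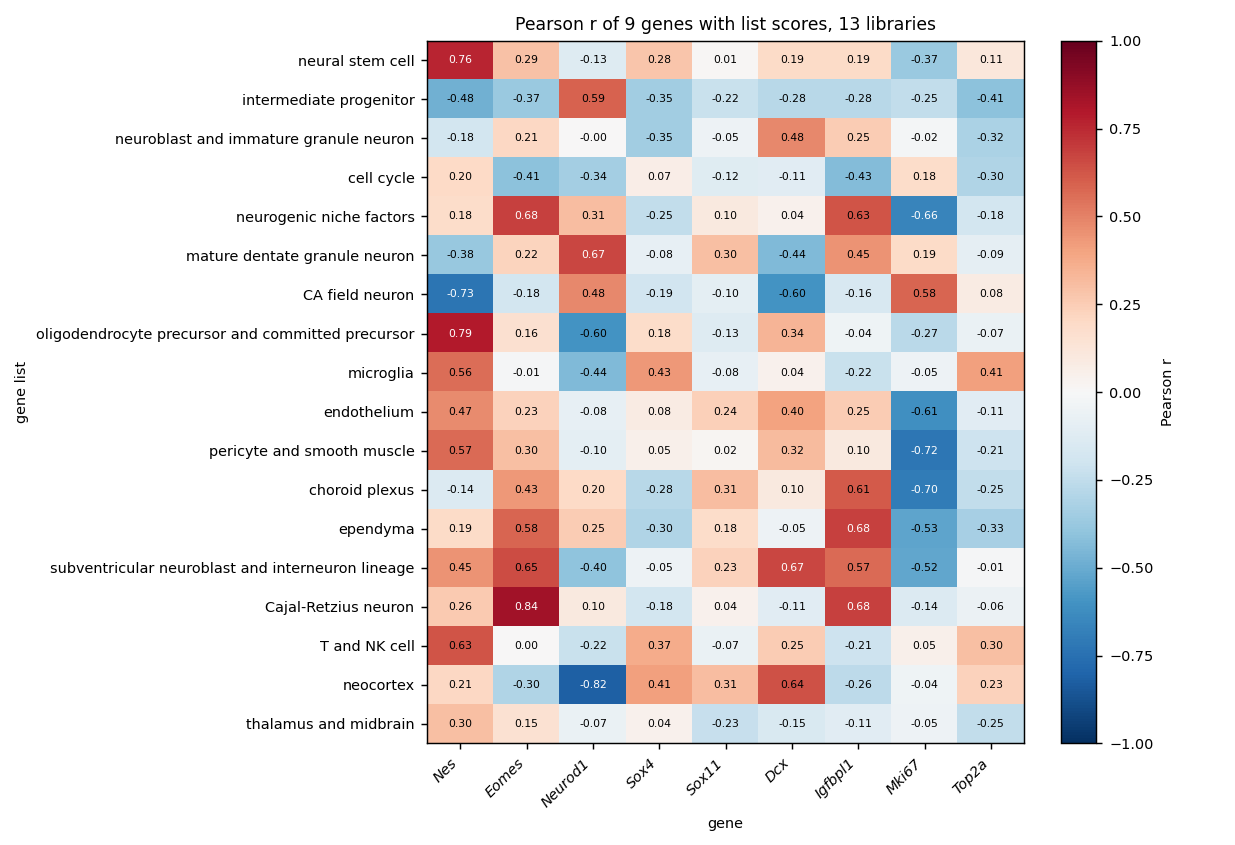
Pearson r over the 13 libraries between the log2 CPM of each of the 9 genes (columns) and the mean centred log2 CPM of each gene list (rows). Neurod1 with neocortex (-0.82), Eomes with Cajal-Retzius markers (0.84) and Nes with oligodendrocyte precursors (0.79) have the largest values, and 0 of 162 relations passed after adjustment.

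Among themselves the 9 genes varied in both directions. Of the 36 pairs, 17 had a positive and 19 a negative Pearson r, with a median of -0.045 and a range from -0.45 to 0.82. After Eomes with Igfbpl1 the highest was Sox4 with Top2a, at r = 0.65 and rho = 0.66 (permutation p = 0.0177 and 0.0158, adjusted 0.319 and 0.349; r 0.71 without the 2 farthest libraries). Eomes and Neurod1, which follow each other in the lineage, had r = 0.26 and rho = 0.37 (permutation p = 0.395 and 0.216, adjusted 0.838 and 0.842). Without Aducanumab 58 and ACLP-NT 49, the farthest libraries, r was 0.80 (n = 11), a value given as a description. Eomes had only 3 to 25 counts in each of those libraries. Over all 13 libraries r of this pair was -0.28 after centring on group means and 0.04 on log2(FPKM + 1). Dcx and Sox11, both held by immature neurons, had r = 0.42, and Dcx and Igfbpl1 0.30.

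**Figure D5:**
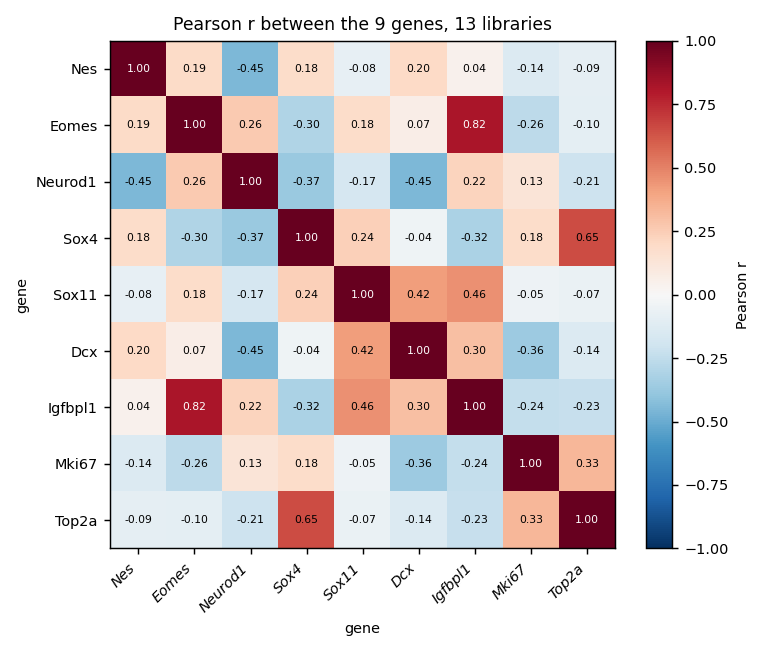
Pearson r between the log2 CPM of the 9 genes over the 13 libraries. Eomes and Igfbpl1 have the highest value (0.82), Sox4 and Top2a the next (0.65), and all other pairs lie between -0.45 and 0.46.

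The neurogenic niche supplies secreted and signalling factors to these cells. Of 25 tested, 0 passed in either direction in each comparison, with 16 higher in ACLP-NT and 17 in Aducanumab than in saline (medians 0.047 and 0.065). The Wnt modulator gene Dkk3 was the most abundant (log2 fold change 0.06 and -0.04), then Cx3cl1, the neuronal fractalkine (0.02 and -0.10), and the BDNF receptor gene Ntrk2 (-0.07 and -0.01). Their score had r = 0.68 and rho = 0.56 with Eomes (permutation p = 0.0119 and 0.0499, adjusted 0.175 and 0.417), and r was 0.28 without Aducanumab 58 and ACLP-NT 49. With Igfbpl1 the score had r = 0.63 and rho = 0.68 (permutation p = 0.0198 and 0.0132, adjusted 0.195 and 0.265), and r was 0.33 without these libraries. With Mki67 it had r = -0.66 and rho = -0.55 (permutation p = 0.0151 and 0.0536, adjusted 0.181 and 0.417).

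Markers of the remaining tissue gave 0 past the test in either direction in each comparison. Of 12 CA field genes 11 were higher in ACLP-NT and 9 in Aducanumab than in saline (medians 0.16 in each). Of 12 choroid plexus genes all were higher in both (medians 0.78 and 0.82), but single libraries moved these medians: the first ran from 0.43 without saline 18 to 3 without saline 38 and was 0.45 without saline 32 or ACLP-NT 53, and the second ran from 0.29 without Aducanumab 58 to 3.1 without saline 38 and was 0.43, 0.45 and 0.46 without saline 18, saline 32 and Aducanumab 56. Of 10 ependymal genes 9 and 10 were higher (medians 0.23 and 0.4). The first of these medians was 0.11 without saline 18, ACLP-NT 49 or ACLP-NT 53, 0.35 and 0.36 without ACLP-NT 17 and 27, and 0.44 without saline 38, and the second 0.14 without Aducanumab 58 and 0.74 without saline 38. Of 12 genes of the subventricular and interneuron lineage 6 and 6 were higher (medians -0.0072 and 0.028), and of 7 Cajal-Retzius genes 6 and 5 (medians 0.25 and 0.42). The Cajal-Retzius medians ran from 0.16 without ACLP-NT 49 to 0.46 without ACLP-NT 27 and from 0.24 without Aducanumab 58 to 0.66 without Aducanumab 24. Of 10 pericyte and smooth muscle genes 1 was higher in ACLP-NT and 6 in Aducanumab (medians -0.19 and 0.15, the second -0.093 without Aducanumab 58), of 11 thalamus and midbrain genes 7 and 9 (medians 0.073 and 0.66, the second -0.06 without Aducanumab 50), and of 6 T and NK cell genes 2 and 3 (medians -0.36 and 0.00083). The T and NK medians ran from -0.77 without ACLP-NT 17 to -0.14 without saline 32 and from -0.31 without Aducanumab 58 to 0.12 without saline 32.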

How the data were processed

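Hippocampal mRNA was selected with oligo(dT) beads, per the labels' protocols. Per the submitters' processing notes the tools were HISAT2 (2.0.4), StringTie (1.3.4d), cutadapt (1.9) and edgeR. The sources used here name no counter, genome build or annotation release. Per the file headers the authors deposited raw counts, which are whole numbers without normalization, and FPKM, which the authors scaled to gene length and library total. Libraries were matched to columns by library name.

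Counts were filtered with filterByExpr (22065 of 36287 genes), scaled by TMM and tested with the edgeR 4.0.16 quasi-likelihood test (two-sided, 3 groups in 1 fit, Benjamini-Hochberg over all genes, threshold 0.05). Each SE was derived from the fold change and its F statistic, and intervals are 95%. Levels are CPM after TMM and, between genes, FPKM. Log2 CPM had a prior count of 2, and a list score is the mean centred log2 CPM of its genes. Correlations used 100000 permutations, two-sided. Of 274 symbols on 18 lists, 273 were in the table and 265 tested. The smallest chi-square per degree of freedom within a group was 13.6, so every library counts as 1 sample. The edgeR, DESeq2 1.42.0 and limma 3.58.1 steps were tested on simulated data.

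The members and lists were chosen with earlier results of these data known. Named are the 9 members, the 3 genes with the highest FPKM of each list, and the 5 genes most like Dcx, Eomes and Mki67 (Gm and Rik names left out). Some genes that this rule names are not reported here. For lists other than the pathway and granule lists, the text gives defining markers in place of those 3. Alternatives were other scalings, filters, fits, tools and pseudocounts and each library left out.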

Additional observations from a re-analysis of the deposited data

Results flagged for a closer look

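In 13 genes (the 9 members and 4 genes most like Eomes) each of the 3 groups was searched for a library far from the rest of its group, by Dixon's criterion at the 95% level. Of 39 such groups 9 held one. Chance gives about 1 in 20 for normally distributed values, which CPM need not be, and no share over all genes was taken. The 4 genes most like Eomes were picked for their likeness, so their flags are not independent of its own. The 9 flags can therefore not be weighed against that rate. Aducanumab 58 was far above its group for Eomes (3.71 CPM, next 0.438) and Slc10a4 (2.56, next 0.614). ACLP-NT 49 was far above its group for Eomes (5.59 CPM, next 0.393), Igfbpl1 (5.15, next 2.39), Slc10a4 (1.33, next 0.360), Glp1r (11.3, next 3.96), Nrn1l (0.551, next 0.307) and Dcdc2a (13.8, next 10.8). Mki67 was high in ACLP-NT 55 (4.99 CPM, next 4.07), just past the criterion.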

How the results depend on the processing

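The number of members called was 0 in every comparison under upper quartile and RLE scaling, without a filter, a robust fit, the 2 groups alone, limma with both pseudocounts and each library left out. It was also 0 with a floor of 1 on the mean FPKM, which left out Eomes, Igfbpl1, Mki67 and Top2a, and in DESeq2, which gave no adjusted p for Eomes. Over all genes DESeq2 called 9 in ACLP-NT against saline, 18 in Aducanumab against saline and 3 between the treatments, where edgeR called 0. With single libraries left out these counts ran from 0 to 1 in each comparison, and with both Aducanumab 58 and ACLP-NT 49 out they were 0, 1 and 1. The call was Nav2 without saline 32 and 4933407K13Rik without ACLP-NT 49 or both, named after their values were seen. Of 36 member pairs 1 was called, 0 after centring on group means and 0 without the 2 farthest libraries. On log2(FPKM + 1) the pair Eomes and Igfbpl1 passed as well (r 0.87, permutation test, adjusted p = 0.013).

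Log2 fold changes that changed sign were all uncalled. Eomes in ACLP-NT against Aducanumab was 0.00 and -0.16 in limma with pseudocounts of 1 and 0.1, -0.41 without both libraries, and -2.15 to 1.91 with single libraries left out. With single libraries left out Dcx ran from -0.29 to 0.03 in ACLP-NT against saline and from -0.06 to 0.13 between the treatments, Mki67 from -0.02 to 0.18 in ACLP-NT and -0.17 to 0.04 in Aducanumab against saline, and Igfbpl1 from -0.16 to 0.65 between the treatments. The cause was not tested. For Eomes against saline, edgeR gave 3.52 in ACLP-NT and 3.35 in Aducanumab. There limma gave 0.26 in each on log2(FPKM + 1), and 0.96 and 1.12 on log2(FPKM + 0.1). The median FPKM of Eomes was 0.0614 over all libraries and 0.0233 in saline, under both pseudocounts. How far the pseudocount made this difference was not tested. No paired analysis was possible because no animal number occurs in more than 1 group. Depth limits Eomes, with 3 to 25 counts in 11 libraries.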
